A study of Mus musculus with 23 samples.

Results

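Macrophages that had begun to refill the mouse liver 48 h after loss of its Kupffer cells were compared with blood Ly6C-high monocytes by their open chromatin. The comparison used 4 of the 23 libraries of the study, chosen by their titles: 2 of repopulating liver macrophages and 2 of blood monocytes, each from a mouse of its own. All were ATAC-seq libraries, which read where a transposase can reach the DNA, and the authors deposited for each a list of called peaks with a normalised tag count, here named signal and given per 10 M tags. Other libraries of the study came from repopulating macrophages at 24 h, Kupffer cells of mice given PBS, knockout Kupffer cells and cultured macrophages. The 48 h macrophages came from Clec4f-cre/Rosa26iDTR mice given diphtheria toxin, in which the Clec4f promoter, active in Kupffer cells, drives the Cre that switches on the toxin receptor. The blood monocytes came from untreated C57BL/6J mice. Strain, toxin and tissue therefore differ between the groups together with cell state, and their parts cannot be told apart. The file headers call the 48 h libraries KMClecNeg and all 4 libraries male. Overlapping peaks of the 4 lists gave 104999 merged regions, and their median width was 224 bp.

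Kupffer cells are the resident macrophages of the liver and line its sinusoids, where they take up particles, old red cells and bacteria. When they are lost, Ly6C-high monocytes enter from the blood and take on Kupffer cell features under signals from neighbouring cells, among them Notch ligands, TGF-beta family ligands and the sterol ligands of the nuclear receptor LXR. In such cells, open regions far from gene starts are mostly candidate enhancers, and signal at a region reflects how accessible the DNA is, not how much the gene is transcribed.

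The gene starts of 6 genes are shown first, because they changed between the groups and belong to genes described below. They are the RefSeq promoters of the GRCm38.p6 build (equal to mm10), 250 bases before to 50 after the start, read 5′ to 3′ on the gene's strand. Capitals mark the bases inside the merged region. C3ar1 (chr6:122856108-122856407, minus strand), Abca1 (chr4:53159846-53160145, minus strand) and Nrarp (chr2:25180508-25180807, plus strand) rose at 48 h. Cd5l (chr3:87357631-87357930, plus strand) had a peak only at 48 h, while Cx3cr1 (chr9:120068247-120068546, minus strand) and S100a4 (chr3:90603520-90603819, plus strand) fell.
C3ar1: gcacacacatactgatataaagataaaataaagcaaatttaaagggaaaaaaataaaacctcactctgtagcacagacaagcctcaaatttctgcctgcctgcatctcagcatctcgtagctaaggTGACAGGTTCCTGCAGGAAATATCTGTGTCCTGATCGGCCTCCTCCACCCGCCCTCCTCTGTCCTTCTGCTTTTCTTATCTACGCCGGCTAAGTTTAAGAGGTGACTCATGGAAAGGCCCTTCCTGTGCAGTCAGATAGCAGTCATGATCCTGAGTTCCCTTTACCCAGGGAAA
Abca1: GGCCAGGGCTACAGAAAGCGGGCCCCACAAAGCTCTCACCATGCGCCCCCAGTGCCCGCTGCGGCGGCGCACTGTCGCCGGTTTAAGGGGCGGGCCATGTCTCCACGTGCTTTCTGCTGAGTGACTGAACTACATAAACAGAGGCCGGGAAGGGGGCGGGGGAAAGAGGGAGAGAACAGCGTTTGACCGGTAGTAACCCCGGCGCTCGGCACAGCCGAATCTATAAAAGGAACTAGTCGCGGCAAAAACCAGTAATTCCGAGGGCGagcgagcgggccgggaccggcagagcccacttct
Nrarp: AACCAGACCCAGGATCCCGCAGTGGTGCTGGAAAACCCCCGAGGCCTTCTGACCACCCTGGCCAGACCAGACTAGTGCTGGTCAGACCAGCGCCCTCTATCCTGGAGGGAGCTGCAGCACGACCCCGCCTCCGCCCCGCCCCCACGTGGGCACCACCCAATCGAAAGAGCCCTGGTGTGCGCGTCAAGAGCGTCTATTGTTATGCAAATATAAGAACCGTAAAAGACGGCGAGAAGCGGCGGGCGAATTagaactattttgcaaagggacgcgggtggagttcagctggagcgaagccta
Cd5l: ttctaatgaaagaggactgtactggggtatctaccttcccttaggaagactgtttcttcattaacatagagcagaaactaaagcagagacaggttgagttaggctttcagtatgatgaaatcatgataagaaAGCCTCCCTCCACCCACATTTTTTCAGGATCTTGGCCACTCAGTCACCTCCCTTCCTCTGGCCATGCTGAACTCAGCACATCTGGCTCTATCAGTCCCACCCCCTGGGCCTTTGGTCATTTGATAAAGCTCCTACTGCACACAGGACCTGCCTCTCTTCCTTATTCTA
Cx3cr1: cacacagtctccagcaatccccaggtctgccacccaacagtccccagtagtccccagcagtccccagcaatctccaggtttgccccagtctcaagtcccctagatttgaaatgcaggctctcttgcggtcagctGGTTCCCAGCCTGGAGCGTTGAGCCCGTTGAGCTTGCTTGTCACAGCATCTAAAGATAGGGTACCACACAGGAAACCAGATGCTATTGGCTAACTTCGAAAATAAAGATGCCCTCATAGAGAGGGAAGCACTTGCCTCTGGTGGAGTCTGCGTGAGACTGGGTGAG
S100a4: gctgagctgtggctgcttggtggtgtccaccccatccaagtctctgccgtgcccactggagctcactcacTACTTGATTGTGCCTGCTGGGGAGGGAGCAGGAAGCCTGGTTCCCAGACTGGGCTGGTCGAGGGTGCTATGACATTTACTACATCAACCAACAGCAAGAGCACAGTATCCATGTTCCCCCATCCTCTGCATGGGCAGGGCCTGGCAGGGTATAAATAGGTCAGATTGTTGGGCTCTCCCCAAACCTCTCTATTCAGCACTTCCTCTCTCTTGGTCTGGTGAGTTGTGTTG
The motifs searched on both strands were AP-1 (TGANTCA), PU.1 (GAGGAAGT), C/EBP (TTGCNNAA), NF-kB (GGANTTTCC), RBPJ (GTGGGAA) and the E-box of the MiT/TFE factors (TCACGTGA); none of these strings contains another. The C3ar1 promoter held TGACTCA 22 bases before the start, inside the open part. Nrarp held TTATGCAA inside the open part and a second C/EBP match outside it, and S100a4 held ACTTCCTC, the PU.1 motif on the other strand, inside its open part. Abca1, Cd5l and Cx3cr1 held none of the 6. Among all 21263 promoters, AP-1 letters stood in 6.99%, PU.1 in 3.13%, C/EBP in 10.2%, NF-kB in 1.28%, RBPJ in 6.07% and the E-box in 1.23%. The E-box stood in 2.9% of the 1723 promoters whose region rose, 1.03% of the 1556 whose region fell and 2.18% of the 5681 whose region did not pass the test. NF-kB letters stood in 1.74%, 0.514% and 1.07% of the same sets. The other motifs differed less in proportion between these sets, with AP-1 in 4.59%, 3.98% and 4.33%, PU.1 in 3.66%, 3.41% and 3.56%, C/EBP in 8.13%, 7.58% and 7.59%, and RBPJ in 6.67%, 5.14% and 5.54%. A match is a description of the letters only.

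The 4 libraries were of like depth, at 11.5 and 13.6 M tags at 48 h and 12.3 and 14.2 M tags in blood. Peaks numbered 75159 and 84395 at 48 h, against 66305 and 71892 in blood. The share of tags in peaks was 41.95% and 44.48% at 48 h, against 37.94% and 50.66% in blood, so blood library 2 had the highest share. The 2 libraries of a group shared 72.88% of their regions at 48 h and 76.49% in blood. Gene starts of 9 hepatocyte markers held no peak in any of the 4 libraries. Of 12 regions near hepatocyte markers that were called in all 4 libraries, 0 were higher and 5 lower at 48 h (41.7%). Of all such regions 17.9% passed in either direction. Gene starts with a peak numbered 2 and 2 of 6 for endothelial markers at 48 h against 1 and 1 in blood, and 3 and 3 of 8 for erythroid markers against 1 and 1. They numbered 3 and 5 of 15 for T and NK cell markers at 48 h against 3 and 3 in blood, 2 and 1 of 7 for B cell markers against 0 and 1, and 4 and 4 of 8 for dendritic cell markers against 3 and 3. Stellate cell markers had 1 and 1 of 9 at 48 h against 2 and 2 in blood, and neutrophil markers 4 and 4 of 12 in either group. The summed signal at endothelial marker genes was 1608 and 1925 at 48 h, against 992 and 1419 in blood, and at dendritic cell marker genes 3755 and 3753 at 48 h, against 4235 and 5473 in blood. Regions called in both 48 h libraries and neither blood library made up 11.2% of all regions. Their share was 16.0% near hepatocyte, 14.4% near endothelial, 20.9% near stellate, 14.3% near T and NK cell and 12.5% near erythroid markers. It was 8.47% for neutrophil, 9.09% for B cell and 7.28% for dendritic cell markers. Blood-only shares ran from 2.08% to 10.2%, against 5.0% of all. The part of such cells in the results was not tested, and fewer accessible cells cannot be told apart from less access per cell.

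Signal was tested with limma in the 48747 regions called in all 4 libraries, named shared regions, on log2 of the signal plus 1, with the library median subtracted. At an adjusted p of 0.05, 8736 shared regions were higher at 48 h (17.9% of those tested), 8741 were lower (17.9%) and 31270 did not pass. Changes are thus relative to the median region, which before centring stood at -0.11 (log2, 48 h minus blood). The medians were 5.39 and 5.49 at 48 h, against 5.35 and 5.75 in blood. Blood library 1 thus lay below both 48 h libraries and blood library 2 above them. Without centring 4172 were higher and 6470 lower. With 2 libraries a group, these p-values rest on a spread pooled over regions of like signal, and the smallest two-sided exact permutation p for a single region would be 0.33. The labels name a mouse for each library, and the p-values measure the spread between these 4 mice only. Of the regions that rose, 4163 changed by over 1 on the log2 scale and 549 by over 2, and of those that fell 3741 and 355.

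The largest gain lay inside Abhd12, a lipid hydrolase gene, at chr2:150840147-150840454. Its signal was 310.3 and 351.3 at 48 h, against 10.6 and 9.16 in blood, a log2 change of 5.04 (SE 0.24, limma adjusted p = 1.1e-22). The same region held 224.6 and 266.5 in Kupffer cells and 248.1, 250.6 and 129.0 at 24 h. A region 25403 bp from Erg, an ETS family transcription factor gene that is also on the endothelial marker list, held 149.9 and 148.9 at 48 h and 11.4 and 6.34 in blood (log2 change 4.09, SE 0.31, limma adjusted p = 2.0e-15). Rgs1, a gene of a regulator that dampens G protein signalling, held 227.5 and 191.4 at 48 h and 10.6 and 16.9 in blood (3.97, SE 0.25). Dusp5, which encodes a phosphatase acting on ERK kinases, held 207.4 and 228.8 at 48 h and 13.8 and 22.6 in blood at a region 22484 bp from the gene (3.66, SE 0.23). The 48 h and blood values of these regions did not overlap, as the rule that named them required. Plekha1, Mtmr7, Ubxn2b, Lbh, Ankrd55 and Rassf8 made up the rest of the 10 largest gains, with log2 changes of 3.58 to 4.01. The region near Ubxn2b stood apart in its timing, with 176.1 and 150.4 at 48 h but 30.0, 15.4 and 11.4 at 24 h.

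The largest losses lay mostly inside genes. Inside Cyp2ab1, a cytochrome P450 gene, signal was 11.3 and 8.8 at 48 h, against 151.4 and 186.1 in blood (log2 change -3.83, SE 0.28, limma adjusted p = 3.6e-16). Inside Pabpc1l, a gene of the poly(A)-binding protein family, it was 11.3 and 11.0 at 48 h and 183.1 and 187.5 in blood (-3.83, SE 0.27). Inside Pard3, a cell polarity gene, it was 16.6 and 16.1 at 48 h and 166.9 and 273.5 in blood (-3.52, SE 0.24). Sbno2, a gene of the interleukin 10 response in macrophages, held 10.5 and 12.5 at 48 h and 117.2 and 147.3 in blood (-3.30, SE 0.28). Col4a2, Ttc7, Fbxl2, Xrcc4, Asic2 and Gpi1 completed the 10, at -3.27 to -3.40. None of these 10 regions overlapped a Kupffer cell peak, while all 3 libraries at 24 h still had a peak there, such as 45.9, 24.5 and 16.1 at Cyp2ab1.

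**Figure D1:**
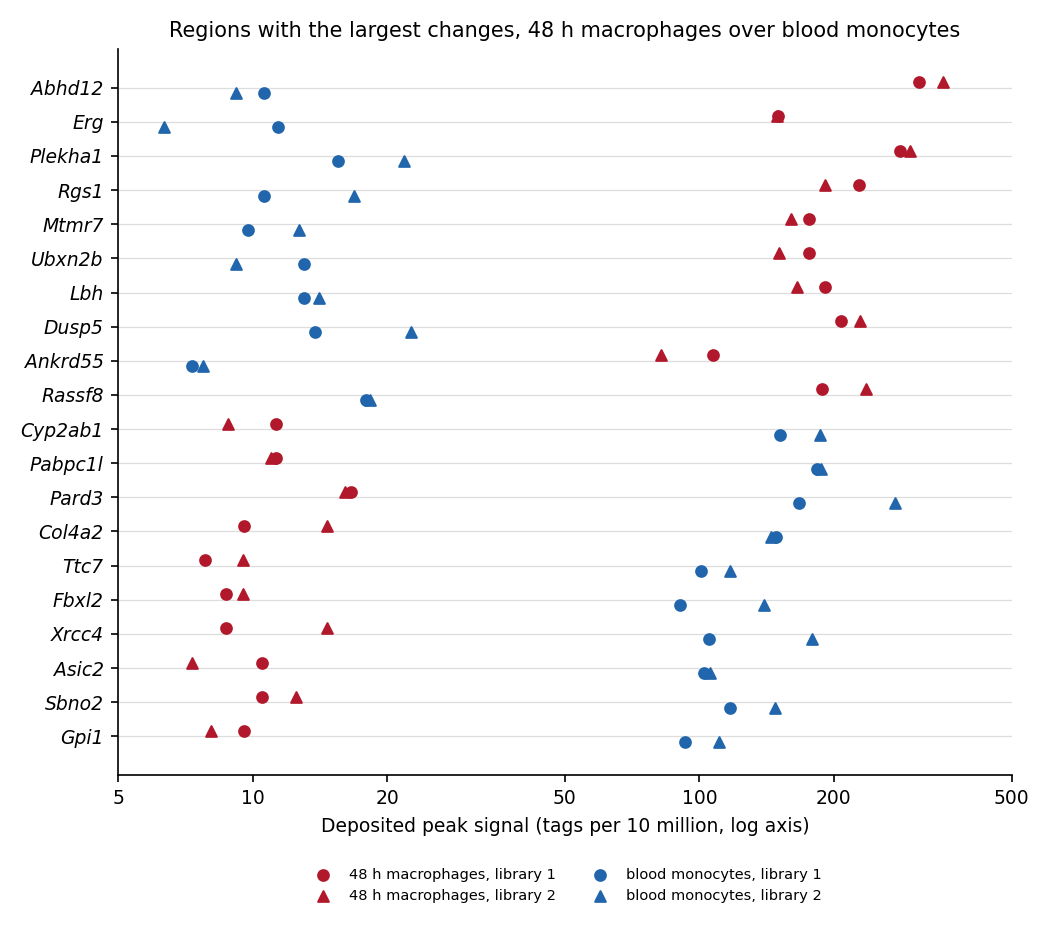
Signal (tags per 10 M, log axis) of the 10 shared regions with the largest gain (Abhd12 to Rassf8) and the 10 with the largest loss (Cyp2ab1 to Gpi1), with 1 point per library of 48 h macrophages (red) and blood monocytes (blue), named by the gene within 50 kb. The 48 h points lie right of the blood points in the upper 10, from Abhd12 at 310.3 and 351.3, and left of them in the lower 10, down to Asic2 at 7.33 in library 2.

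Regions called in both libraries of one group and in neither of the other numbered 11751 at 48 h (11.2% of all regions) and 5247 in blood (5.0%). The excess at 48 h moved with list length: with the 66252 strongest peaks of each library, the counts were 8222 at 48 h and 7651 in blood. A region without a peak has no deposited value, and its absence there does not show closed chromatin. Without 48 h library 1 the 48 h-only count was 22133, and the blood-only count was 9223 without 48 h library 2, 10181 without blood library 1 and 8056 without blood library 2. Of the 48 h-only regions 3098 (26.36%) had a blood peak within 1 kb, and of the blood-only regions 1758 (33.5%) had a 48 h peak that near, which leaves 8653 and 3489 apart. Among the 10 strongest of each kind, Ripk2, Mxd4, Ppp2r1a and Hdac4 stood in both lists, with neighbouring peaks of the 2 groups. These lay at the gene start for Mxd4, Ppp2r1a and Hdac4, and inside and 261 bp from the gene for Ripk2. At Hdac4, for example, the 48 h peaks of 487.2 and 492.9 and the blood peaks of 358.1 and 459.5 were called side by side. Hspa8, Lpcat3, M6pr, Sema6d, Eif2ak3 and a region with no gene within 50 kb completed the strongest at 48 h, and Dnpep, Leprot, Gtf2a1, Aph1b, Ccdc9 and Cic those in blood. Gene starts (within 500 bp) made up 6.04% of 48 h-only and 5.14% of blood-only regions, against 21.9% of shared regions, with chromosome 18 left out of these shares.

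The strongest regions with no peak of the other group within 1 kb were a set chosen after the values were seen. By the RefSeq promoters, which gave no start for Mbp on chromosome 18, these regions lay away from gene starts except at Lmo4 in blood. At 48 h they included a region inside Gramd1b, a sterol transfer protein gene, at 310.3 and 349.1, and one 165 bp from Junb, an AP-1 subunit gene, at 276.3 and 284.6. Pcolce2, a gene of a collagen-processing enhancer protein, held 223.1 and 236.2, with 187.7 and 229.1 in Kupffer cells and 43.1, 33.6 and 14.2 at 24 h. All 6 group-only regions of Pcolce2 were of the 48 h kind. In blood the 10 strongest, ranked by the lower of the 2 libraries, were led by a region inside Klf13, a zinc finger factor gene, at 223.8 and 243.2, and one 10069 bp from Zswim4 at 207.6 and 281.9. Further down stood a region 4056 bp from Dusp1, which encodes a phosphatase of stress kinases, at 149.8 and 155.8. None of these 3 had a peak in any library at 24 h or in Kupffer cells.

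Itga9, the gene of the integrin alpha 9 chain that binds matrix proteins, had the largest net number of 48 h-only regions of any gene. Of its 50 regions 19 were called only at 48 h, 0 only in blood, and 5 of 10 shared ones were higher, none lower. The strongest shared region, at chr9:118669765-118669985, held 349.5 and 342.5 at 48 h, against 80.6 and 129.7 in blood (log2 change 1.86, SE 0.15, limma adjusted p = 6.5e-15). The 48 h-only region at chr9:118666188-118666396 held 250.1 and 225.9, and that at chr9:118617354-118617571 held 160.4 and 156.2. These regions lay before the gene start in the RefSeq promoter table, inside the gene body with its longest transcript. With each region assigned to 1 gene, longer genes can hold more: Itga9 spans 294 kb, and Nav2, Sash1, Cmss1 and Exoc4, next in order, span 223 to 725 kb. Nav2 had 17 regions called only at 48 h and 1 only in blood, and Sash1 14 and 0. Ctsc, the gene of the protease cathepsin C, spans only 37.8 kb and had 11 and 0, with 6 of 10 shared regions higher. On the blood side the counts were smaller. Foxp1, a forkhead factor gene, had 5 regions only at 48 h and 10 only in blood, with 4 of 35 shared regions higher and 16 lower, and F13a1, the gene of the coagulation factor XIII A chain, had 0 and 5.

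**Figure D2:**
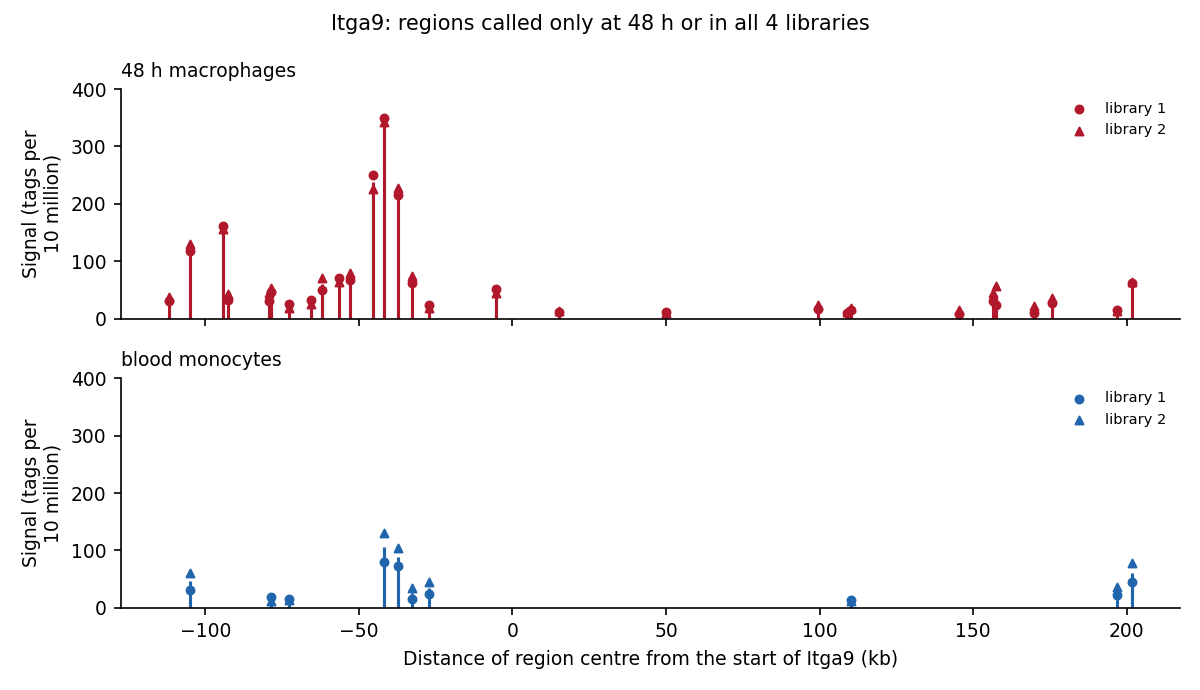
Signal (tags per 10 M) of the Itga9 regions called only at 48 h or in all 4 libraries, by distance from the start of Itga9 (kb), for 48 h macrophages (top) and blood monocytes (bottom). Points are libraries and lines their means, the tallest at 349.5 and 342.5 at 48 h against 80.6 and 129.7 in blood, and a region with no line in the lower panel had no peak there.

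Kupffer identity genes had a larger share of 48 h-only and of higher regions than all regions did. Their 28 genes had 286 regions, of which 91 were called only at 48 h (31.8%) and 5 only in blood (1.75%), against 11.2% and 5.0% of all regions. With lists of equal length the counts were 76 and 12. Of the 91 regions Itga9 held 19 and Sema6d 11, and the list was chosen with earlier results of these data known. Among 77 shared regions the test called 31 higher (40.3%) and 7 lower (9.09%), or 24 and 4 without centring, with a median change of 0.43 against -0.02 over all shared regions. Cd5l, the gene of a secreted macrophage survival factor, had 6 regions called only at 48 h. One of them was its gene start, at 51.4 and 52.1 at 48 h, with 76.8 and 62.3 in Kupffer cells and no peak in the libraries at 24 h or in blood. Its region at chr3:87333975-87334294 held 124.6 and 110.7 at 48 h, against 8.14 and 12.7 in blood (3.52, SE 0.30, limma adjusted p = 6.1e-14).

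Other Kupffer genes were at different stages of access. Spic, the gene of an ETS factor needed by red pulp and other iron-handling macrophages, had a region inside the gene called only at 48 h, at 179.5 and 205.4. Cd38, the gene of a NAD-consuming ectoenzyme, had 6 regions called only at 48 h, and 4 of 7 shared ones were higher. One of these 4 held 46.2 and 65.3 at 48 h against 11.4 and 7.75 in blood (2.54, SE 0.35, limma adjusted p = 6.9e-08). The region over the Cd38 start was called only at 48 h, at 51.4 and 71.1. Slc40a1, the gene of the iron exporter ferroportin, had 6 called only at 48 h, and its shared region held 119.4 and 101.9 at 48 h against 35.8 and 38.8 in blood (1.65, SE 0.23). Sema6d, a semaphorin gene, was mixed, with 11 regions called only at 48 h but 4 of 10 shared ones higher and 4 lower. Marco, a scavenger receptor gene, had 4 regions called only at 48 h, with values of 8.72 to 28.6. Its 1 higher region held 31.4 and 55.7 at 48 h, against 10.6 and 13.4 in blood (1.84, SE 0.35, limma adjusted p = 3.0e-05) and 98.6 and 93.9 in Kupffer cells. Vsig4, the gene of a complement receptor of tissue macrophages, rose at both shared regions, which lay 8588 and 7188 bp from the gene. The changes were 1.00 (SE 0.31) and 0.97 (SE 0.24), the first no longer past the threshold without centring or without 48 h library 1. Vsig4 also had 2 regions called only at 48 h and 1 only in blood, at 40.7 and 58.5.

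Clec4f, a lectin gene, had 1 region called only at 48 h, at 29.6 and 24.2 against 84.4 and 111.2 in Kupffer cells, and its shared region did not pass (0.59). Of the 28 genes, 2 had no region assigned to them: Timd4, the gene of a receptor for phosphatidylserine, and Clec1b, the gene of a podoplanin receptor. A region goes to its closest gene only, so a peak near these genes may be counted for a neighbour. Folr2, a folate receptor gene, was higher at 2 of 2 shared regions and had 1 called only at 48 h, and it was chosen, like Clec1b, after its values were seen.

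The list named classical monocyte had more lower than higher regions, with exceptions. It is a mixed list that also holds Cx3cr1, Spn, Ace and Treml4, genes typical of Ly6C-low monocytes. Its counts are therefore not a measure of classical monocyte genes alone. Of 87 shared regions of the list's 22 genes, 14 were higher (16.1%) and 30 lower (34.5%), against 17.9% and 17.9% of all shared regions, with a median of -0.26, and 7 and 26 without centring. Of all its 185 regions 14 were called only at 48 h (7.57%) and 17 only in blood (9.19%), against 11.2% and 5.0% of all regions. With lists of equal length the counts were 11 and 23. The start of Cx3cr1, the gene of the fractalkine receptor, held 24.4 and 30.8 at 48 h, against 114.8 and 127.6 in blood (-1.99, SE 0.24, limma adjusted p = 2.3e-09), with no peak in Kupffer cells. Cx3cr1 was lower at 3 of 7 shared regions and higher at none. The start of S100a4, a calcium-binding protein gene, held 31.4 and 26.4 at 48 h and 99.3 and 142.4 in blood (-1.90, SE 0.24, limma adjusted p = 7.0e-09). Both promoters are among those printed above.

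The start of Ly6c2, the gene behind the Ly6C antigen, held 26.1 and 27.1 at 48 h and 57.0 and 62.7 in blood (-1.03, SE 0.28, limma adjusted p = 0.0034), with the caution that Ly6c1 is a close copy. The other 4 of its 5 shared regions did not pass, at -0.34 to 0.14. The start of Flt3, a cytokine receptor gene listed here as a dendritic cell marker, held 66.2 and 46.2 at 48 h and 215.7 and 300.9 in blood (-2.07, SE 0.18, limma adjusted p = 2.4e-13). Ccr2, the gene of the receptor that draws monocytes into tissue, did not follow. Its gene start had a peak only in blood, at 18.7 and 24.7, while 1 of 4 shared regions was higher at 48 h, at 39.2 and 80.7 against 33.4 and 31.7 in blood (0.88, SE 0.29), a call lost without centring, without 48 h library 2 or without blood library 2. F13a1 had 5 blood-only regions but 2 of 4 shared ones higher and 1 lower, each lost under several alternatives. Plac8 was split as well, with 4 higher and 2 lower, the lower ones including its start at 31.4 and 22.7 at 48 h against 87.1 and 88.1 in blood (-1.57, SE 0.27).

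**Figure D3:**
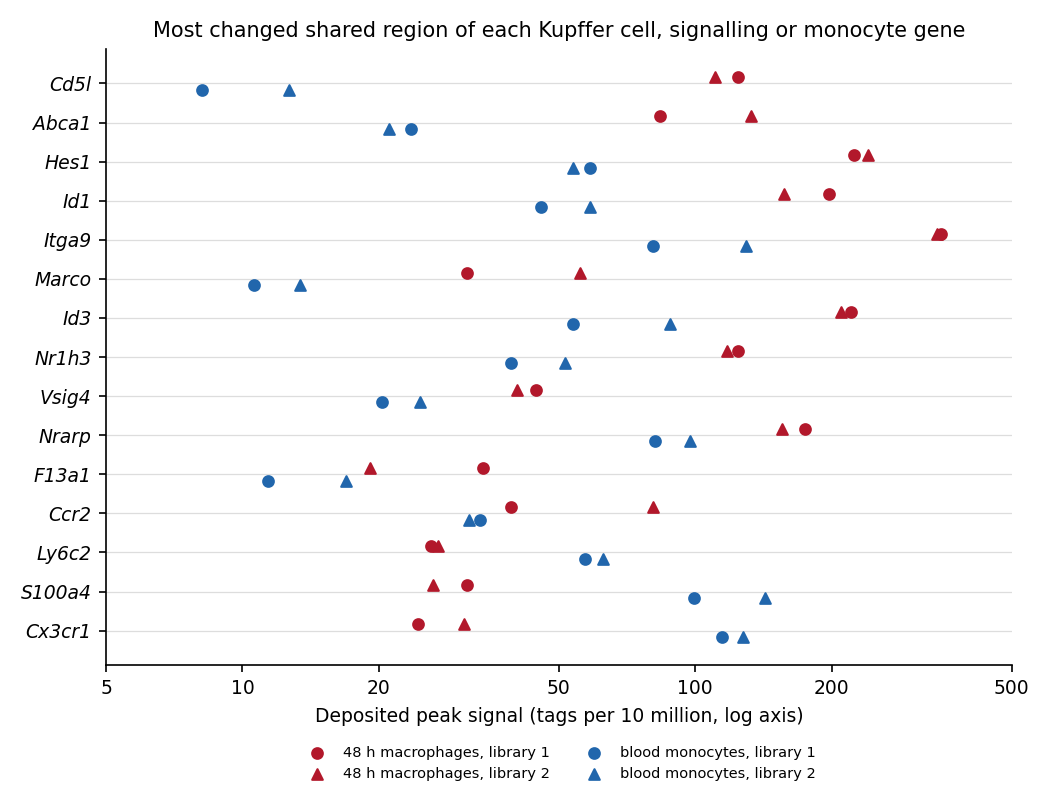
Signal (tags per 10 M, log axis) of the most changed shared region that passed the limma test for each named Kupffer cell, signalling or monocyte gene, with 48 h macrophages in red, blood monocytes in blue and 1 point per library. The genes run from Cd5l (124.6 and 110.7 at 48 h, 8.14 and 12.7 in blood) to Cx3cr1 (24.4 and 30.8 at 48 h, 114.8 and 127.6 in blood), and the calls at F13a1 and Ccr2 were lost under several alternatives.

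LXR target genes had more higher than lower regions. Among 100 shared regions of 23 such genes the test called 31 higher (31.0%) and 16 lower (16.0%), against 17.9% in either direction for all shared regions, with a median of 0.18, and 23 and 11 without centring. Regions called only at 48 h numbered 42 (18.2%) and those only in blood 7 (3.03%), where all regions had 11.2% and 5.0%. With lists of equal length the counts were 33 and 12. Nr1h3, which encodes LXR alpha, was higher at both of its shared regions. At its start signal was 91.5 and 106.3 at 48 h, against 39.9 and 57.8 in blood (1.13, SE 0.22, limma adjusted p = 4.9e-05), and inside the gene 124.6 and 117.4 at 48 h against 39.1 and 51.5 (1.52, SE 0.21). Abca1, the gene of a cholesterol exporter, was higher at 7 of 10 shared regions and lower at none, and had 5 regions called only at 48 h. Its start held 197.8 and 202.4 at 48 h and 95.2 and 110.7 in blood (1.07, SE 0.16, limma adjusted p = 5.1e-07), and a region inside it 83.7 and 132.8 at 48 h and 23.6 and 21.1 in blood (2.30, SE 0.27). A pair of 48 h-only regions inside Abca1 differed in what Kupffer cells held: 186.5 and 177.5 at 48 h against 116.6 and 113.1 in Kupffer cells at one, and 24.4 and 19.1 against 99.5 and 105.5 at another. Abcg1, the gene of a second cholesterol exporter, had 2 of 7 shared regions higher and 4 group-only regions at 48 h against 2 in blood. Mertk, the gene of a receptor for dying cells, had 8 and 1, with 2 of its 8 shared regions higher and 2 lower.

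Among 22 nuclear receptor genes, 35 of 101 shared regions were higher (34.7%) and 22 lower (21.8%), and 28 and 17 without centring. Of all shared regions 17.9% passed in either direction. Rxra, the gene of the partner of LXR and many other receptors, was higher at 5 of 8, the most changed with 116.8 and 104.1 at 48 h against 29.3 and 47.9 in blood (1.64, SE 0.23, limma adjusted p = 9.0e-08), but lower at its gene start, at 41.8 and 34.5 against 72.4 and 85.3 (-0.92, SE 0.25). Thrb, a thyroid hormone receptor gene, had 8 regions called only at 48 h and both shared ones higher. Pparg, the gene of a lipid-sensing receptor, was higher at 5 of 11 and lower at 1. Its most changed region held 62.8 and 79.2 at 48 h and 14.7 and 19.7 in blood (2.10, SE 0.30), while a peak next to it, at chr6:115375333-115375579, held 62.8 and 73.3 at 48 h and 90.3 and 147.3 in blood (-0.65, SE 0.20).

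Among Notch genes, calls went both ways. Of 111 shared regions of 20 Notch genes, 26 were higher (23.4%) and 18 lower (16.2%), against 17.9% of all in either direction. The counts without centring were 14 and 16, against 4172 and 6470 of all shared regions. Hes1, a Notch target gene that encodes a repressor, rose at 3 of 6 shared regions and fell at 1. It had 0 regions called only at 48 h and 2 only in blood, with 35.0 and 60.6 at the one inside the gene. Its most changed region, 956 bp from the gene, held 224.0 and 241.3 at 48 h, against 58.6 and 53.6 in blood (2.14, SE 0.18, limma adjusted p = 8.2e-14). The start of Nrarp, a Notch target gene whose product feeds back on the pathway, held 174.3 and 155.5 at 48 h and 81.4 and 97.3 in blood (0.99, SE 0.17, limma adjusted p = 9.2e-06). The receptor gene Notch1 fell at its start, with 81.9 and 77.0 at 48 h and 172.6 and 176.9 in blood (-1.02, SE 0.18), and had 3 blood-only regions and 0 at 48 h. Notch2 was higher at 1 of 18 shared regions and lower at 5. The coactivator genes Maml2 and Maml3 were higher at 6 of 14 and 3 of 17 and lower at 1 and 4.

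Of 132 shared regions of 24 TGF-beta and BMP genes, 28 were higher (21.2%) and 26 lower (19.7%). Both shares were near the 17.9% of all shared regions in either direction. The counts without centring were 17 and 19, against 4172 and 6470 of all shared regions. The target genes Id1 and Id3, which encode inhibitors of basic helix-loop-helix factors, were higher at 2 of 5 and 3 of 7 shared regions and lower at none. At Id1 the most changed held 197.0 and 157.0 at 48 h, against 45.6 and 58.5 in blood (1.86, SE 0.20, limma adjusted p = 4.2e-11), and the second (0.55) was lost without centring. At Id3 the most changed held 220.5 and 209.8 at 48 h, against 53.7 and 88.1 in blood (1.74, SE 0.18). Smad3, the gene of a signal carrier of the pathway, fell at its start, at 130.7 and 118.8 at 48 h and 279.2 and 319.3 in blood (-1.14, SE 0.15, limma adjusted p = 9.9e-09). Ski, the gene of a corepressor of Smad proteins, was lower at 5 of 10 and higher at 2.

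Inflammatory and AP-1 genes had more higher than lower regions, where all shared regions had 17.9% in either direction. Of 130 shared regions of 24 inflammatory genes, 40 were higher (30.8%) and 14 lower (10.8%), and 21 and 10 without centring. Cxcl1, a gene of a neutrophil-attracting chemokine, had 5 regions called only at 48 h, and 2 of 4 shared ones were higher, at 53.2 and 90.9 at 48 h against 15.5 and 13.4 in blood for the more changed (2.31, SE 0.32, limma adjusted p = 6.8e-08). Nfkbiz, the gene of a nuclear partner of NF-kB, was higher at 5 of 11 and lower at 2. Of 80 shared regions of 17 AP-1 and immediate early genes, 25 were higher (31.2%) and 8 lower (10.0%), or 12 and 7 without centring. Their group-only regions numbered 15 at 48 h (9.55%) and 13 in blood (8.28%), against 11.2% and 5.0% of all regions. With lists of equal length they numbered 12 and 16. All 5 shared regions of Fosb rose, the most changed with 261.5 and 270.6 at 48 h against 96.9 and 117.7 in blood (1.42, SE 0.15, limma adjusted p = 6.9e-11). Crem, the gene of a cyclic AMP-responsive factor that was chosen after its values were seen, was higher at 6 of 6. It was 1 of 12 genes with at least 4 shared regions all higher, against 10 with all lower, out of 4103 such genes. Of 51 shared regions of interferon response genes, 11 were higher (21.6%, against 17.9% of all) and 5 lower (9.8%), or 7 and 3 without centring.

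Genes of uptake and breakdown included single strong gains. Their counts stand against 17.9% of all shared regions in either direction, and those without centring against 4172 higher and 6470 lower of all. Complement genes had 10 of 35 shared regions higher (28.6%) and 1 lower (2.86%), or 5 and 1 without centring. The start of C3ar1, the gene of the receptor for the complement fragment C3a, rose with 138.6 and 174.6 at 48 h and 18.7 and 20.4 in blood (3.04, SE 0.25, limma adjusted p = 1.2e-14). Phagocytosis and scavenger genes had 38 of 149 higher (25.5%) and 18 lower (12.1%), or 24 and 16 without centring. The higher ones included a region inside Lrp1, an endocytic receptor gene, at 248.4 and 270.6 at 48 h and 57.0 and 64.1 in blood (2.19, SE 0.17), and one inside Itgb5, an integrin beta chain gene, at 129.0 and 162.8 at 48 h and 32.6 and 22.6 in blood (2.48, SE 0.25). Lysosome genes had 20 of 113 higher (17.7%), near the share of all shared regions, and 11 lower (9.73%), but 9 and 10 without centring. Ctsd, the gene of the protease cathepsin D, held 168.2 and 183.4 at 48 h and 46.4 and 55.0 in blood at a region 15803 bp away (1.89, SE 0.19). The start of Tfeb, the gene of a driver of lysosome genes, fell, at 170.8 and 183.4 at 48 h and 311.7 and 388.3 in blood (-0.86, SE 0.13). Iron and heme genes had 15 of 42 higher (35.7%) and 5 lower (11.9%), or 7 and 4 without centring, and the start of Steap3, a ferrireductase gene, was among the lower ones, at 163.9 and 173.1 at 48 h and 344.3 and 398.9 in blood (-1.02, SE 0.13). NRF2 and glutathione genes had 16 of 61 higher (26.2%) and 10 lower (16.4%), or 10 and 4 without centring.

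Transcription factor genes of the myeloid lineage went both ways as a list, and some did so within a gene. Of 268 shared regions of 29 such genes, 72 were higher (26.9%) and 49 lower (18.3%), against 17.9% of all in either direction. Without centring 48 were higher and 44 lower. Zeb2, Klf6, Cebpb and Tfec were looked up after their values were seen. They were higher at 3 of 5, 3 of 10, 3 of 7 and 3 of 6 shared regions and lower at 0. Cebpa and Runx3 were lower at 3 of 7 and 3 of 13 and higher at 0. The other shared regions of these genes did not pass. Runx1, the gene of a factor of blood cell development, was higher at 5 of 25 shared regions and lower at 10. A region 35563 bp from it held 84.5 and 89.5 at 48 h and 23.6 and 28.2 in blood (1.83, SE 0.26), while one inside it held 11.3 and 16.1 at 48 h and 83.8 and 118.4 in blood (-2.68, SE 0.29, limma adjusted p = 1.4e-10). Runx2 was higher at 1 of 17 and lower at 10. Bach2, the gene of a repressor that binds Maf sites, was higher at 10 of 25 and lower at 2, and Etv6, an ETS repressor gene, at 10 and 3 of 33. Within Foxp1, which is not on that list, a region at chr6:99241666-99241951 held 197.8 and 246.4 at 48 h and 25.2 and 44.4 in blood (2.80, SE 0.20), while one at chr6:99175491-99175706 held 9.59 and 13.9 at 48 h and 72.4 and 59.2 in blood (-2.29, SE 0.33). Trafficking genes had 29 higher and 29 lower of 140 (20.7% each), and cell cycle genes 21 and 21 of 99 (21.2% each). These shares were near the 17.9% of all shared regions. Without centring the counts were 18 and 24 for trafficking genes and 10 and 17 for cell cycle genes. Those of all shared regions were 4172 and 6470.

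**Figure D4:**
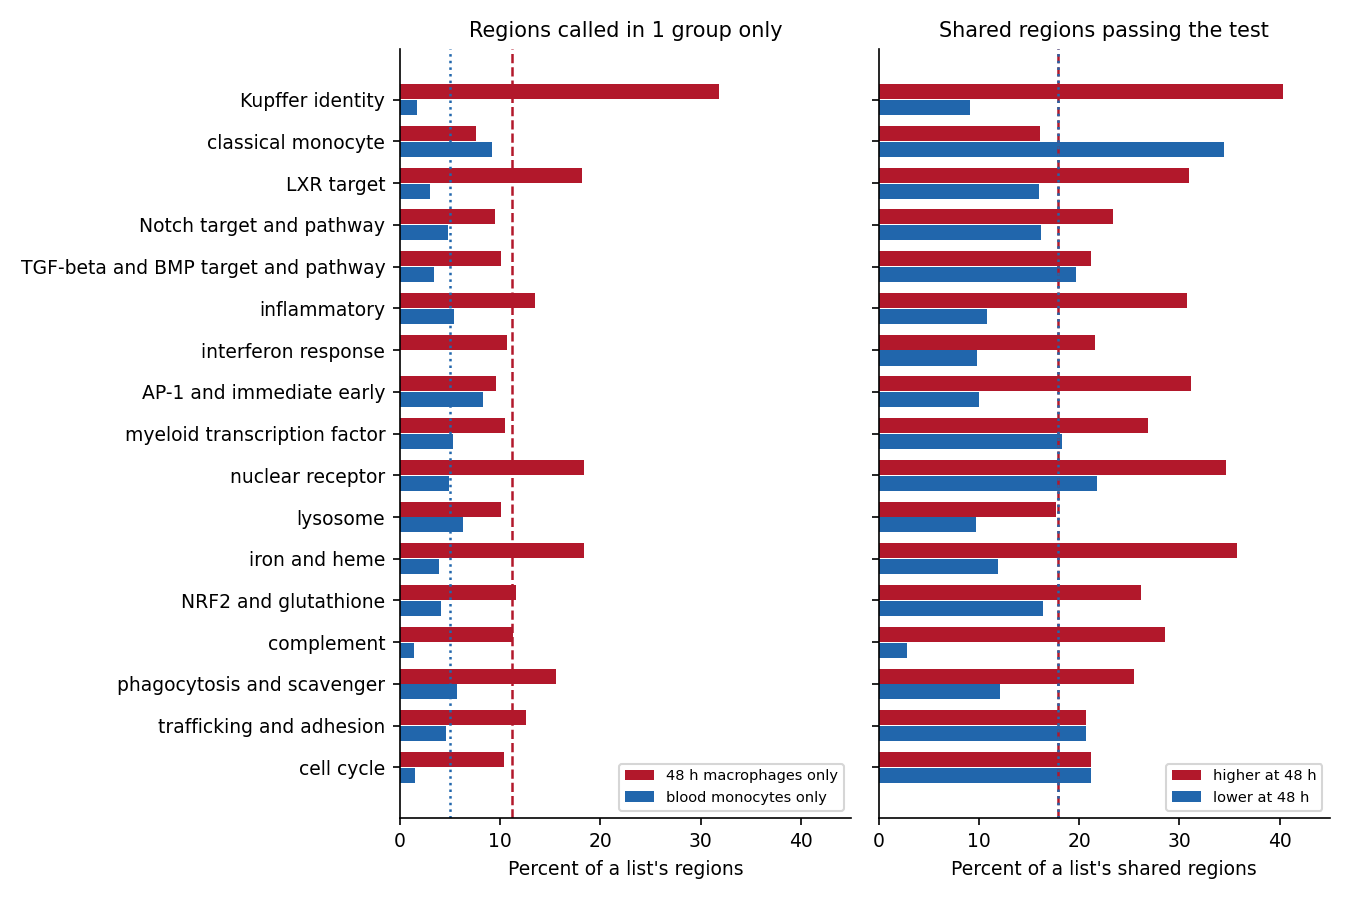
For each gene list, the percent of its regions called only in 48 h macrophages (red) or only in blood monocytes (blue) on the left, and the percent of its shared regions higher (red) or lower (blue) at 48 h by limma on the right. Lines (dashed red, dotted blue) mark all regions, at 11.2% and 5.0% on the left and 17.9% for both on the right. Kupffer identity genes reach 31.8% and 40.3% at 48 h, and the mixed list named classical monocyte reaches 34.5% lower. Without centring lower calls outnumber higher ones over all shared regions (6470 lower and 4172 higher). The same holds for Notch, TGF-beta and BMP, lysosome, trafficking and cell cycle genes.

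The group-only regions were looked up in 9 other libraries as a description. Of the 48 h-only regions, 60.2% ± 2.51 (SD, n = 2) overlapped a peak in Kupffer cells, 43.8% ± 9.16 (n = 3) in repopulating macrophages at 24 h, 65.2% ± 1.32 (n = 2) in bone marrow-derived macrophages (BMDM) given the Notch ligand DLL4 and 59.9% ± 7.61 (n = 2) in untreated ones. Of all regions the shares were 54.1% ± 1.86 in Kupffer cells, 61.7% ± 2.66 at 24 h, 71.9% ± 1.33 with DLL4 and 70.8% ± 5.15 in untreated cells. The 48 h-only set thus stood above all regions in Kupffer cells and below them at 24 h and in BMDM with and without DLL4. Of the blood-only regions, 6.77% ± 0.54 overlapped a Kupffer cell peak and 26.2% ± 1.13 a peak at 24 h, against 44.3% ± 2.98 with DLL4 and 48.8% ± 7.49 in untreated BMDM. Of the shared regions that fell, 70.4% ± 2.34 overlapped a Kupffer cell peak, against 95.1% ± 0.90 of those that rose and 78.8% ± 2.44 of those that did not pass. Overlap with a library depends on how many peaks it has, and these shares carry no test. The median lowest signal of the 48 h-only regions was 13.9, and the part of signal strength in these shares was not tested.

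**Figure D5:**
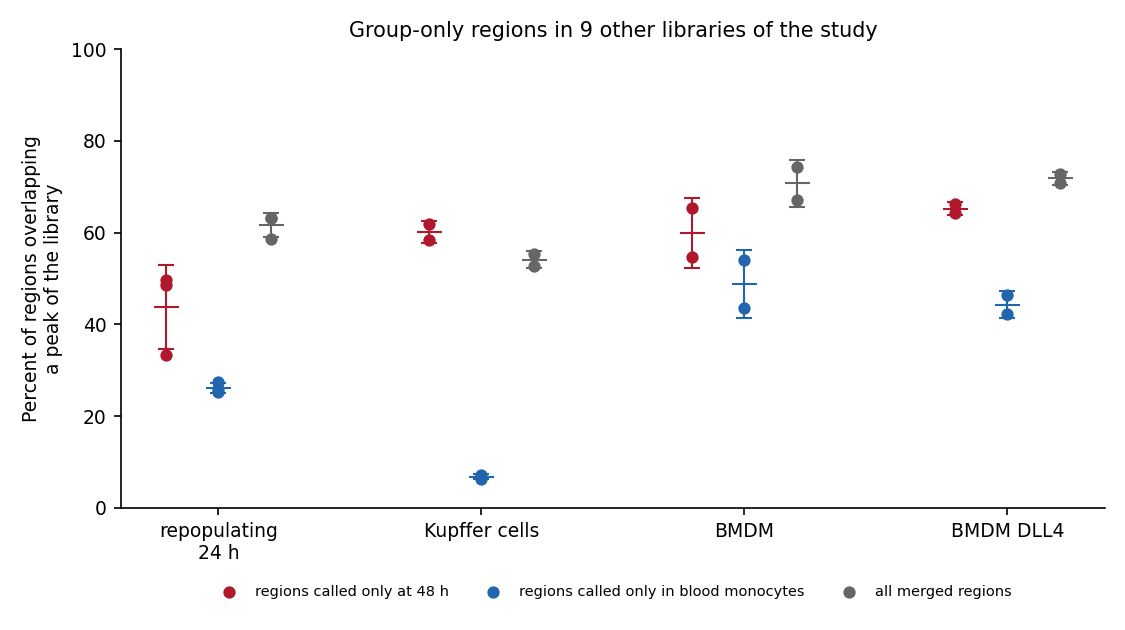
Percent of the 48 h-only regions (red), the blood-only regions (blue) and all merged regions (grey) that overlap a peak in each of 9 other libraries, with points for libraries and bars for the mean and SD (n = 3 at 24 h, n = 2 otherwise). In Kupffer cells the blood-only regions average 6.77% and the 48 h-only regions 60.2%.

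By the same lookup, 6108 of the 48 h-only regions (52.0%) had a peak in both Kupffer cell libraries and 3722 (31.7%) in neither. A peak was absent from all 3 libraries at 24 h for 3891, and from those and both Kupffer cell libraries for 1477 (12.6%). Of these 1477, 1148 had no blood peak within 1 kb, and the strongest of the 1148 were looked up after the values were seen. They lay inside Snx18, a gene of membrane trafficking, at 128.1 and 129.1 at 48 h, and 3712 bp from Hook2, a gene of a microtubule linker protein, at 120.3 and 119.6. One lay 38581 bp from Cd44, a hyaluronan receptor gene, at 43.6 and 48.4.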

How the data were processed

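ATAC-seq libraries of 2 repopulating macrophage and 2 blood monocyte samples were analysed. Per the file headers, the authors called peaks in each library with HOMER (size 200 bp, false discovery rate 0.001, at least 4-fold over the surrounding 10 kb, no input), and the deposited signal is a normalised tag count scaled to 10 M tags. Reads were aligned with Bowtie2 to mm10, per the submitters' processing notes, and versions are not given in the sources used here. Peaks on the 19 autosomes and X were merged where they overlapped by at least 1 bp, leaving out 222 on Y and other sequences. A region's signal is its strongest peak in a library. A region belongs to the closest protein-coding gene within 50 kb (RefSeq, GRCm38.p6), ties going to the first by name, so overlapping genes cannot be told apart. Shared regions were tested with limma 3.58.1 (R 4.3.3) as a two-sided moderated test with a mean-variance trend and Benjamini-Hochberg adjustment over all of them, after the script was tested on simulated data. Group-only counts have no test. The members and gene lists were chosen with earlier results of these data known. The rule for naming took the 10 largest changes in each direction with groups apart, the 10 genes in each direction with the largest net number of group-only regions, the 10 strongest group-only regions of each kind, up to 4 genes per list with the most called regions, and 19 genes by name. The text describes a selection of these, 1 of the genes given by name is not reported here, and list genes outside the rule were chosen after their values were seen. Alternatives changed the centring, pseudocount, filters, merging, trend, libraries in the fit and list length, and left out each library.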

Additional observations from a re-analysis of the deposited data

How the results depend on the processing

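No paired analysis was possible because the mice of the 2 groups carry different numbers. Without centring 4172 shared regions were higher. With peaks of at least 20 in all libraries 6979 regions were called only at 48 h, and with a signal of at least 20 in the calling libraries 3828 only at 48 h and 1872 only in blood. Of the blood-only regions 3489 had no 48 h peak within 1 kb. Leaving out 1 library gave 13912 to 22133 regions only at 48 h, highest without 48 h library 1, and 6982 to 10181 only in blood, highest without blood library 1, since fewer libraries then have to agree. It gave 7019 to 8412 higher and 6116 to 7214 lower, each with a lone library assumed to vary like the other group. Other settings kept the counts within 1.5 times: 6105 higher and 6186 lower without the trend, and 7627 and 6931 with all 9 repopulation libraries. Of 301 named regions that passed, 194 passed under all alternatives run and 0 reversed. The cause of these shifts was not tested. The planned edgeR test on recovered tags was not run, because recovery of whole tags could not be established by the unit check for lists that hold called peaks only. Weak regions rest on few tags, and a missing peak may be a peak just under the limit of the peak caller.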
